A study of Rattus norvegicus with 3 samples.

Results

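Cortical hem-like cells are described here as they appeared in the embryonic rat cerebral cortex. They were chosen by their counts of unique molecular identifiers (UMIs, each standing for 1 captured RNA molecule). Barcodes were kept if they had 1000 or more detected genes and no more than 10% mitochondrial UMIs. A kept barcode was a member when it held at least 4 UMIs of Lmx1a, Wnt3a, Wnt2b, Rspo1, Rspo2, Rspo3 and Bmp4 together, from at least 2 of these 7 genes. It also had to hold no UMI of Folr1 or Clic6, which mark choroid plexus epithelium, and at most 2 UMIs of Col1a1 and Col3a1, the fibrillar collagens of the meninges. Of 15327 kept cells, 261 were members. They numbered 1 of 4444 in the library labelled E14 (0.0225%), 186 of 5193 in the library labelled E16 (3.58%, exact 95% interval 3.09 to 4.12) and 74 of 5690 in the library labelled E18 (1.30%, 1.02 to 1.63).

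The libraries were made from freshly dissociated cells of the cerebral cortex of wildtype rat embryos (Rattus norvegicus), treated with papain and otherwise untreated, at embryonic day 14, 16 or 18 as labelled. Strain, sex, litter and number of embryos are not given in the sources used here, and which parts of the cortex went into each dissection is not stated either. There was 1 library per label, so no difference between labels or between cell classes has a replicate check, and no test was made. Intervals are exact 95% intervals, which cover counting error only and leave out differences between cells, embryos and dissections.

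The cortical hem is a strip of neuroepithelium at the medial edge of the developing pallium, between the future hippocampus and the choroid plexus. It secretes Wnt and BMP proteins that pattern the hippocampus, and it produces many of the Cajal-Retzius cells, the reelin-secreting neurons of the cortical surface. Wnt proteins act through Frizzled receptors and beta-catenin on TCF/LEF factors, and R-spondins raise the number of these receptors at the cell surface. BMP proteins act through SMAD factors on genes such as the Id and Msx families.

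The libraries did not run in the order of their labels in the radial glia, the stem cells that line the ventricle. Hmga2, high in early radial glia, was at 14.02, 231 and 23.1 UMIs per 1000000 UMIs (CPM) in the libraries labelled E14, E16 and E18. Aldoc, high in late ones, was at 737, 16.3 and 235 CPM. So the labels, and no verified ages, name the libraries below. The libraries held 62740631, 80974234 and 73727823 UMIs in label order and shared 12 to 17 barcodes pairwise, none of them in members. Members had a median of 12725.5 UMIs in the library labelled E16 and 13073.5 in that labelled E18, where all kept cells had medians of 12477 and 10671.5.

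The single member of the library labelled E14 did not look like hem. It held 4 UMIs of Rspo3 and 1 of Rspo1 among 15980 UMIs, none of Lmx1a, Wnt8b, Otx2 or Sox2, and 19 of Neurod6 and 63 of Tubb3, which are genes of cortical neurons. All further values come from the libraries labelled E16 and E18.

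**Figure D1:**
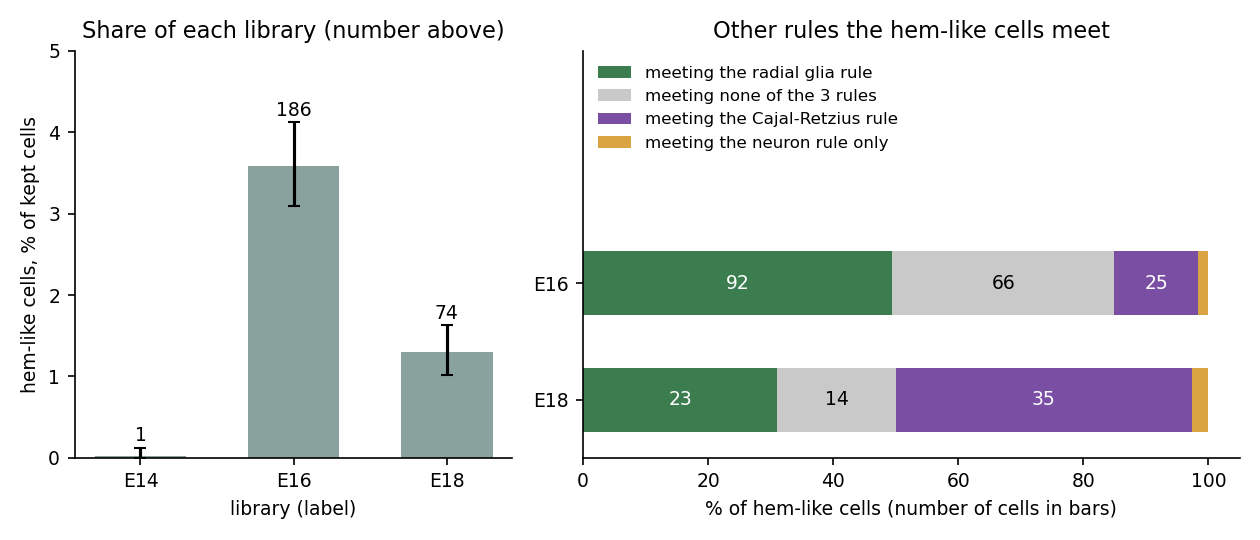
Left, hem-like cells as a percentage of kept cells in each library, with exact 95% intervals and the number of cells above each bar. Right, how the hem-like cells divide by the other class rules they meet: cells meeting the radial glia rule were 92 of 186 in the library labelled E16, and cells meeting the Cajal-Retzius rule were 35 of 74 in that labelled E18.

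The hem-like cells were a mixture, and its make-up differed between the libraries. Comparison classes were cut from the other kept cells by UMIs of a few marker genes, and the same rules were then applied to the members. Radial glia had at least 4 UMIs of Sox2, Pax6, Hes5 and Slc1a3 from at least 2 of them, no Eomes and at most 1 UMI of the Neurod genes. Cajal-Retzius cells had at least 3 UMIs of Reln and at least 6 of Reln, Tp73, Nhlh2 and Calb2, and neurons at least 4 of Neurod2 and Neurod6. A member that met several rules was put under the Cajal-Retzius rule first, then the neuron rule. In the library labelled E16, 92 of 186 members (49.5%, 42.1 to 56.9) met the radial glia rule and neither other one (93 met it in all), 25 (13.4%, 8.89 to 19.2) met the Cajal-Retzius rule, 3 met only the neuron rule and 66 met none of these. In the library labelled E18, 23 of 74 members (31.1%, 20.8 to 42.9) met the radial glia rule, 35 (47.3%, 35.6 to 59.3) met the Cajal-Retzius rule, 2 met only the neuron rule and 14 met none. The label thus fits the members as a neighbourhood of cells that carry RNAs of the rule genes rather than as a single cell type.

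The 3 larger subsets carried RNAs of the rule genes in different measure. Lmx1a, the LIM homeodomain factor of the hem and roof plate, was close in all of them, at 77.7, 84.9 and 60.8 CPM in the radial glia-rule, no-rule and Cajal-Retzius-rule members of the library labelled E16, and at 61.3, 86.9 and 46.7 CPM in that labelled E18. Wnt3a was not: it stood at 133, 32.8 and 18.2 CPM in the library labelled E16 and at 134, 17.4 and 1.95 CPM in that labelled E18. Both genes are part of the rule that chose the members, so these levels are a description only. Radial glia-rule members also held more UMIs of all rule genes, with medians of 22 and 23 against 5 and 7 in Cajal-Retzius-rule members and 10 and 8 in those meeting no rule. They were also deeper in the library labelled E16, with a median of 17225.5 UMIs in all against 9669 and 10041.5, and in that labelled E18 the medians were 13483, 12815 and 9352.

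Genes outside the rule split the subsets further. Wnt8b, a Wnt ligand of the hem and the medial pallium next to it, was at 511, 279 and 54.7 CPM in the same order in the library labelled E16 and at 493, 86.9 and 48.6 CPM in that labelled E18. Tp73, the p53 family factor of hem-derived Cajal-Retzius cells, ran the other way, at 5.43, 191 and 410 CPM and at 2.79, 145 and 368 CPM. Tp73 and Reln are genes of the Cajal-Retzius rule and Sox2 is one of the radial glia rule, so their split between these subsets is partly set by the rules. The Tp73 UMIs of the radial glia-rule members came from 1 cell in each library. Ttr, the thyroid hormone carrier that choroid plexus secretes, was at 2467, 6626 and 6.08 CPM in the library labelled E16 and at 10525, 6620 and 64.2 CPM in that labelled E18. Of the radial glia-rule members, 34 of 92 (37.0%) and 17 of 23 (73.9%) held a UMI of Ttr, and 1 cell held 42.2% and 53.4% of these UMIs. Neurons, which should lack Ttr, held one in 11.9% and 36.4% of cells and radial glia in 16.9% and 40.5%, so that free RNA can give part of these shares. The median depths were 17225.5 and 13483 UMIs in the radial glia-rule members, 9598 and 9646 in neurons and 14181.5 and 12937 in radial glia.

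**Figure D2:**
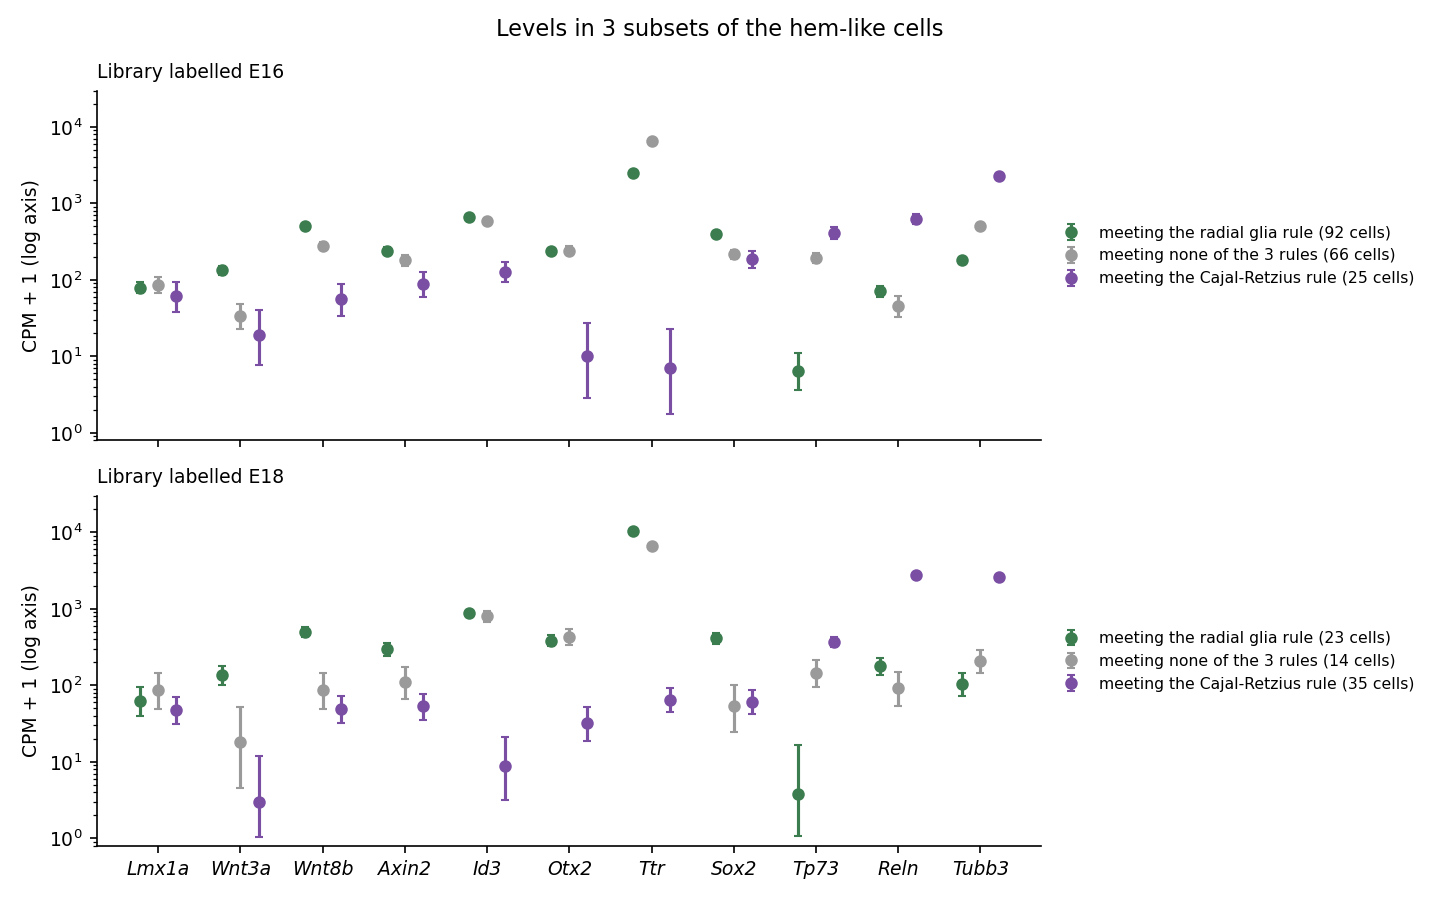
Level (CPM with 1 added, log axis) of 11 genes in the hem-like cells that meet the radial glia rule, the Cajal-Retzius rule or none of the 3 rules, for the libraries labelled E16 (top) and E18 (bottom); points are sums over cells and bars are exact 95% Poisson intervals. Lmx1a lies close together in all subsets, Wnt3a, Wnt8b, Id3, Otx2 and Ttr are lowest in the Cajal-Retzius-rule cells, and Tp73, Reln and Tubb3 are highest there.

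The values that chose the members are given as a description. Rspo3 was at 450.2 CPM in the library labelled E16 and 472 CPM in that labelled E18 and had a UMI in 90.3% and 97.3% of members. Rspo1 was at 329 and 135 CPM, and Rspo2 at 294 and 172 CPM. Wnt3a was at 91.3 and 49.5 CPM, Lmx1a at 77.8 and 58.7, Wnt2b at 24.8 and 16.5, and Bmp4 at 78.5 and 98.1. R-spondins supplied most of the UMIs that met the rule, and 135 of 186 and 49 of 74 members held any UMI of Lmx1a, Wnt3a or Wnt2b. Lmx1a and Wnt3a were found together in 57 and 11 members, and all 7 genes in 18 and 2.

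Members held 71.4% and 59.3% of all Wnt3a UMIs of the kept cells, and 46.4% and 25.6% of those of Lmx1a. Lmx1a was higher in the choroid plexus class than in members, at 146 and 114 CPM, and Wnt3a lower there, at 19.9 and 3.03 CPM. The clause on Folr1 and Clic6 removed 91 and 28 cells that otherwise met the rule, of which 69 and 14 held only 1 or 2 UMIs of these genes. At the threshold, the library labelled E16 had 17 members with 4 UMIs of the rule genes, at 172 CPM of Wnt8b, and 27 cells just outside with 3 UMIs, at 169 CPM. In the library labelled E18, 8 members with 4 UMIs were at 209 CPM of Wnt8b, and 7 cells with 3 UMIs were at 28.1 CPM.

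For genes outside the rule, members were set against radial glia of the same library. A gene counted as past the fold when its CPM, with 10 CPM added to both sides, differed at least 2-fold in the same direction in both libraries. Of 3693 genes with at least 50 CPM in either class, 185 (5.01%) were higher in members and 57 (1.54%) lower. For the gene lists the minimum was 5 CPM, which 11012 genes reached. Of these, 305 (2.77%) were higher and 73 (0.663%) lower, with a median log2 ratio of 0.08 over all of them. Where a list is counted for genes past the fold, only its genes that reached 5 CPM are in the count.

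Many transcription factors of the dorsal midline were higher in members than in radial glia. Of 24 listed forebrain and medial pallium factors, 22 reached 5 CPM. Of these, 11 were higher past the fold and 3 lower, with a median log2 ratio of 0.98. Otx2, a factor of the choroid plexus and hem, was at 211 CPM in members and 15.8 in radial glia of the library labelled E16, and at 214 and 7.80 in that labelled E18. Roof plate factors of the Zic family were higher: Zic4 was at 247 against 37.9 and 287 against 27.0 CPM, and Zic1, Zic2 and Zic5 had log2 ratios between 1.46 and 2.03. Nr2f2, a nuclear receptor of caudal cortex, was at 161 against 21.9 and 214 against 10.9 CPM. Its relative Nr2f1 was lower, at 83.3 against 182 and 47.7 against 191 CPM.

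Lhx2, the selector of cortical against hem fate, was at 241 CPM in members against 667 in radial glia in the library labelled E16, and at 336 against 752 in that labelled E18. It was thus lower in members of both libraries, with log2 ratios of -1.43 and -1.14. Lhx2 differed within the members, at 160 and 153 CPM in those meeting the radial glia rule and at 653 and 556 CPM in those meeting the Cajal-Retzius rule. Other factors of cortical progenitors did not pass the fold: Emx2 was at 170 against 187 and 184 against 144 CPM, Emx1 at 90.4 against 148 and 99.9 against 133 CPM, and Pax6 at 132 against 193 and 151 against 273 CPM. Pax6 is one of the genes that the radial glia class was chosen on. Lhx9, at 75.6 against 6.25 and 214 against 5.37 CPM, was highest in the Cajal-Retzius-rule members, at 346 and 317 CPM.

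**Figure D3:**
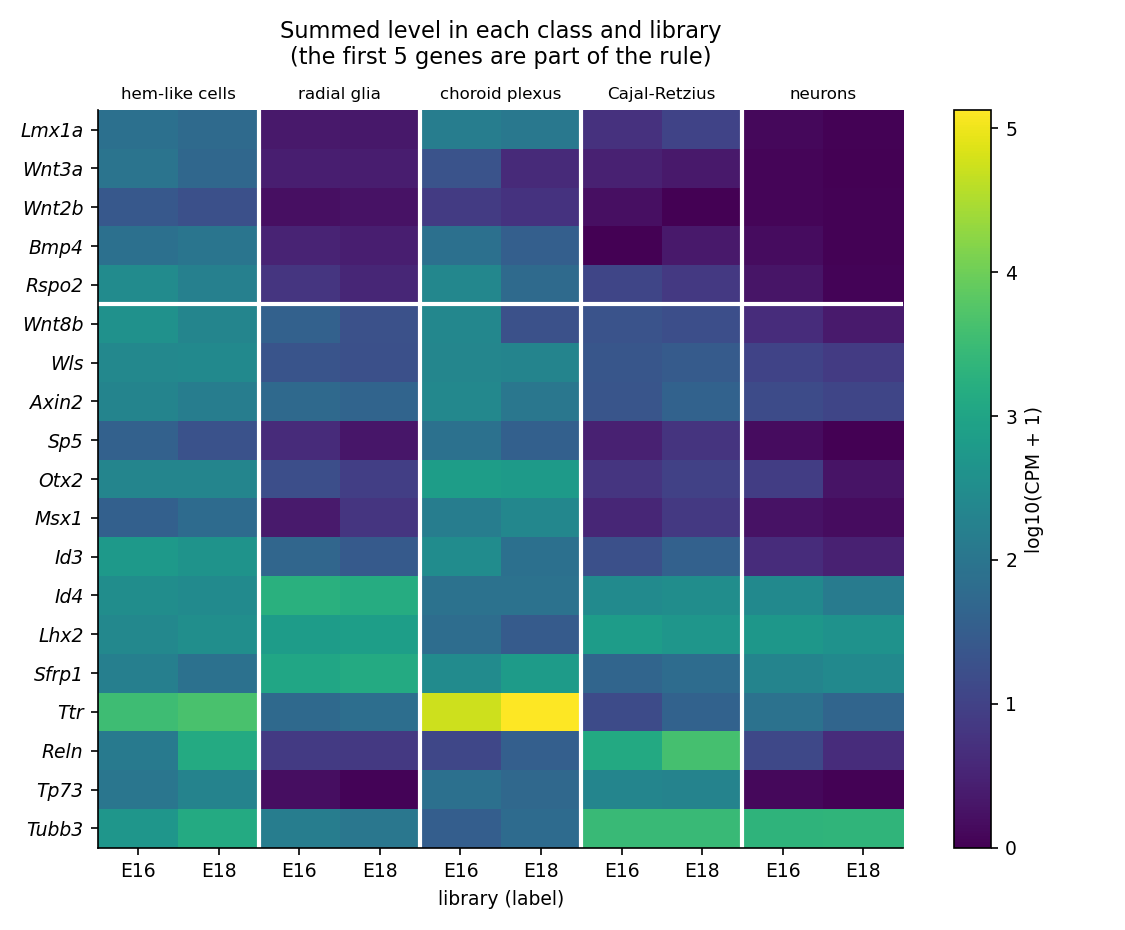
Level, as log10 of CPM with 1 added, of selected genes (rows) summed over the cells of each class (column pairs) in the libraries labelled E16 and E18; the 5 genes above the white line are part of the rule. Hem-like cells share Otx2, Msx1 and Ttr with the choroid plexus class at lower levels, and share Tp73 and Reln with the Cajal-Retzius class, whose rule uses both.

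Wnt ligands other than those of the rule were higher as well. Of 9 listed ligand and secretion genes with enough UMIs, 5 were higher past the fold and none lower, with a median log2 ratio of 1.34. Wnt8b was at 395 CPM in members and 38.7 in radial glia of the library labelled E16, and at 211 and 18.0 in that labelled E18. With each cell thinned to 2000 UMIs, 37.6% (30.7 to 45.0) and 25.7% (16.2 to 37.2) of members held a UMI of Wnt8b, and unthinned 65.1% and 43.2%. Neurons, which should lack it, held one in 0.712% and 0.191% of cells thinned and 2.66% and 0.956% unthinned, at median depths of 9598 and 9646 UMIs. The share of members with Wnt8b thus lay above that of neurons, in which a UMI can come from free RNA. It did not lie above that of the choroid plexus class in the library labelled E16, where 37.8% (23.8 to 53.5) of 45 cells held one thinned and 93.3% unthinned, at a median of 24643 UMIs. Of the same class in the library labelled E18, 0 of 26 cells held one thinned, with an exact upper limit of 13.2%. Unthinned the share was 30.8%, at a median of 36529 UMIs.

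Wls, the carrier that all Wnt proteins need for secretion, was at 243 against 20.0 CPM and at 267 against 16.7 CPM. Wnt7b was at 115 against 7.61 and 126 against 2.74 CPM, and here the Cajal-Retzius-rule members were higher (228 and 175 CPM) than those meeting the radial glia rule (112 and 97.5 CPM). Wnt9a, at 35.4 against 0.776 and 15.6 against 0.671 CPM, and Wnt4, at 23.2 against 4.80 and 29.3 against 3.77 CPM, completed the group. In the radial glia-rule members alone Wnt4 was at 8.15 CPM in the library labelled E16 and 2.79 in that labelled E18. Wnt5a, at 20.3 against 3.97 and 16.5 against 5.73 CPM, and Wnt5b, at 20.6 against 16.8 and 25.7 against 16.3 CPM, did not pass.

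Receptors and inhibitors of the pathway were mixed: of 14, 1 was higher and 2 lower, with a median log2 ratio of 0.29. Sfrp1, a secreted Wnt inhibitor of cortical radial glia, was at 162 CPM in members against 1071 in radial glia in the library labelled E16 and at 78.8 against 1350.2 in that labelled E18. It ranked first among all the genes that were lower past the fold. The receptor gene Fzd8 was lower too, at 22.5 against 72.3 and 10.998 against 74.5 CPM. Draxin, a secreted Wnt inhibitor and axon repellent, was higher, at 126 against 22.9 and 232 against 61.8 CPM. Fzd10, a Frizzled receptor of the hem, was at 33.1 against 1.55 CPM in the library labelled E16 and 9.16 against 0.568 CPM in that labelled E18. Its log2 ratios with 10 CPM added were 1.90 and 0.86, so it did not pass.

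Genes that respond to Wnt signalling were split. Of 15 listed, 11 reached 5 CPM, and of these 4 were higher and 1 lower, with a median log2 ratio of 0.40. Axin2, the feedback inhibitor most used as a readout of beta-catenin signalling, was at 207 CPM in members and 54.2 in radial glia of the library labelled E16 and at 146 and 43.1 in that labelled E18. It had a UMI in 133 of 186 and 45 of 74 members. Of radial glia 43.2% and 33.7% held one, of neurons 11.5% and 9.44%, and of the choroid plexus class 88.9% and 84.6%. These shares are unthinned, and the depths of the classes differ. Sp5 was at 37.3 against 3.17 and 18.3 against 1.08 CPM, Nkd1 at 37.3 against 9.09 and 33.0 against 5.16 CPM, and Bambi, a decoy receptor that also answers to BMP, at 36.7 against 4.70 and 38.5 against 5.68 CPM.

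Lef1, at 202 against 271 and 164 against 199 CPM, did not pass, and neither did Ccnd1, at 113 against 278 and 34.8 against 43.6 CPM. Tcf7l1, a repressor of the pathway, was lower, at 20.9 against 52.1 and 12.8 against 56.3 CPM. Within the members, Axin2 was at 241 and 298 CPM in those meeting the radial glia rule, at 180.0 and 110.0 CPM in those meeting no rule and at 88.1 and 52.5 CPM in those meeting the Cajal-Retzius rule.

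The promoters of 3 of the 4 higher response genes are shown because they hold the core letters that TCF/LEF factors bind. The letters CTTTGA were searched on both strands (as TCAAAG on the other) in the 250 bases before the RefSeq start of each gene, on assembly GRCr8, which is not the assembly the counts were made on. Of 33469 promoters, 13.9% held at least 1 match. Of 10 listed response genes with a promoter in the table, Axin2, Sp5 and Nkd1 held a match, and Bambi, Lef1, Nkd2, Tcf7, Tcf7l1, Tcf7l2 and Rnf43 did not. The stretches read 5′ to 3′ on the gene's strand, with the matches in capitals.
Axin2 (chr10:94398535-94398688, plus strand): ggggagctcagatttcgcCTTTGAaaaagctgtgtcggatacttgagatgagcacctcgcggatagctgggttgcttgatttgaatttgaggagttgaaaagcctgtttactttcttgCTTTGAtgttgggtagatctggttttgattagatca
Sp5 (chr3:75682543-75682608, plus strand): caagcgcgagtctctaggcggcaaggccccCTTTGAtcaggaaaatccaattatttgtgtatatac
Nkd1 (chr19:34722952-34723017, minus strand): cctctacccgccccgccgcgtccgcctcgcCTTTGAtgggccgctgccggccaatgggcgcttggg
The matches begin 232 and 132 bases before the start of Axin2, 104 before that of Sp5 and 141 before that of Nkd1. A match is a run of letters and not a measured binding site.

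BMP response genes were also split. Of 11 listed, 10 reached 5 CPM, and of these 5 were higher and 2 lower, with a median log2 ratio of 1.11. Bambi is counted here and among the Wnt response genes. Id3, an inhibitor of bHLH factors, was at 602 CPM in members against 49.1 in radial glia in the library labelled E16 and at 426 against 27.4 in that labelled E18, and had a UMI in 137 of 186 and 34 of 74 members. Id1 was at 186 against 17.2 and 77.0 against 8.57 CPM. Msx1 and Msx2, homeobox factors of the dorsal midline, were at 35.7 against 1.33 and 61.4 against 5.27 CPM and at 58.9 against 2.04 and 21.1 against 0.826 CPM.

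Id4 went the other way, at 317 against 1767 and 280.4 against 1502 CPM, and so did Hey1, a Notch target as well, at 34.4 against 79.3 and 11.9 against 49.7 CPM. Id3 was close to absent from the Cajal-Retzius-rule members of the library labelled E18, at 7.78 CPM, and stood at 128 CPM in those of the library labelled E16. In the radial glia-rule members it was at 673 and 875 CPM. Of the 13 other BMP ligands, receptors and antagonists, Bmp7 alone passed, at 59.2 against 9.45 and 50.4 against 5.78 CPM, and the median log2 ratio was 0.57. Bmp6, at 14.1 against 0.218 and 10.1 against 0.258 CPM, came close, with log2 ratios of 1.24 and 0.97.

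**Figure D4:**
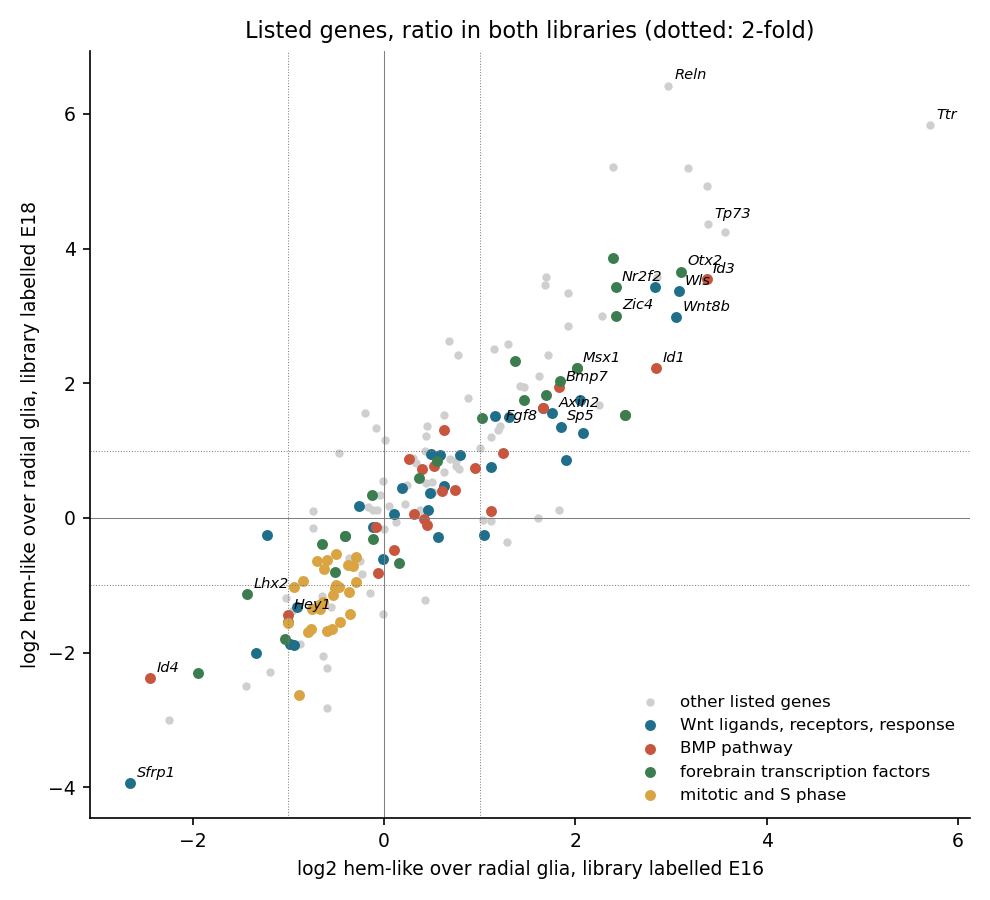
Log2 ratio of hem-like cells to radial glia for every listed gene with at least 5 CPM, in the library labelled E16 (x axis) against that labelled E18 (y axis), coloured by group; dotted lines mark 2-fold. Wnt8b, Wls, Id3, Otx2 and Ttr lie in the upper right, Lhx2, Id4 and Sfrp1 in the lower left, and all mitotic and S phase genes lie below 0 in both libraries.

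Of 11 other genes of signalling centres, Fgf8 and Spry1 passed the fold. Fgf8, the ligand of the rostral patterning centre, was at 34.1 against 9.09 and 22.9 against 2.79 CPM, but it came from 20 of 186 and 8 of 74 members. Spry1, a feedback inhibitor of FGF signalling, was at 48.6 against 11.3 and 47.7 against 5.01 CPM. Fgf17 differed between the libraries, at 57.6 against 17.6 CPM in that labelled E16 and 1.83 against 5.16 CPM in that labelled E18. Among 22 adhesion and guidance genes, the cadherin Cdh11 (36.3 against 8.92 and 69.7 against 3.25 CPM) and the midline repellent Slit2 (59.8 against 22.2 and 48.6 against 15.5 CPM) were higher, and Pcdh19 and Efnb1 lower.

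Among all genes, the 15 higher genes ranked first by the smaller of their ratios were Ttr, Cnr1, Neurod1, Tp73, Eomes, Id3, Pcp4, Cst6, Nhlh2, Otx2, Slc17a6, Wls, Wnt8b, Reln and LOC102553190. Eomes and Neurod1 are limited in the radial glia class by its rule, so their ratios say nothing further. Tp73, Nhlh2 and Reln are genes of the Cajal-Retzius rule, and other cells meeting it were taken out before radial glia were cut. Their ratios are thus partly set by the class order. Cnr1, the cannabinoid receptor, was at 158 against 3.17 and 609 against 4.39 CPM, and Slc17a6, a glutamate transporter of neurons, at 83.3 against 0.872 and 227 against 0.723 CPM. Among the 15 lower genes ranked first were Sfrp1, LOC102546421, Meis2, Id4, Sall1, Fabp7, LOC120101631, Sox21, Lpar1, Creb5, Fgfr3, Hmga1, Pdlim1 and LOC102547455. Fabp7, a fatty acid binding protein of radial glia, was at 103 against 526 and 79.7 against 706 CPM, and Meis2, a homeobox factor, at 35.7 against 236 and 44.9 against 354 CPM.

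To set like against like, the 92 and 23 radial glia-rule members alone were compared with radial glia, a comparison chosen after the make-up had been seen. Of 3628 genes, 137 (3.78%) were higher and 41 (1.13%) lower. Of the 185 genes higher in all members, 91 (49.2%) were among these 137 (66.4%), and of the 57 lower ones 34 (59.6%) were among the 41 (82.9%). Ttr, Id3, Wnt8b, Wls, Otx2, Lmo2, Id1, LOC102548260, Wnt7b and Sulf1 ranked first. Lmo2, a LIM-domain protein, was at 160 CPM in these members against 5.16 in radial glia in the library labelled E16 and at 89.1 against 2.27 in that labelled E18.

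The heparan sulfate sulfatases Sulf1 and Sulf2, which alter the binding of Wnt to the cell surface, were at 96.7 against 4.36 and 75.2 against 2.32 CPM and at 168 against 21.9 and 125 against 5.94 CPM. In the library labelled E18, 48.1% of the 27 UMIs of Sulf1 came from 1 cell. Meis2, Sfrp1, Sall1, Sox21, Id4 and Lhx2 were lower here as well. Lhx2 had log2 ratios of -2.00 and -2.22 in this comparison, against -1.43 and -1.14 over all members.

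Markers of neighbouring cell types were high in members. The 9 Cajal-Retzius markers summed to 442 and 2257 CPM in members against 14.6 and 9.30 in radial glia, and 7 of them passed the fold. Reln, Tp73, Nhlh2 and Calb2 are genes of the Cajal-Retzius rule. Other kept cells meeting that rule were left out of the radial glia class, but members meeting it stayed. So part of this lead is set by the class order. The 11 choroid plexus markers summed to 3698 and 4915 CPM against 78.4 and 84.9, nearly all of it Ttr, and 9 of the 11 had UMIs. The missing ones are Folr1 and Clic6, which the rule sets to 0. Kcnj13, a potassium channel of choroid plexus that the choroid plexus class but not the members was chosen on, was at 17.7 and 29.3 CPM in members and 292 and 642 CPM in the choroid plexus class. Ttr was at 3382 and 4540 CPM in members, at 53688 and 133213 CPM in the choroid plexus class and at 85.3 and 46.6 CPM in neurons. In the library labelled E18, 1 member held 40.7% of the members' Ttr UMIs.

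Of 8 radial glia markers 1 was lower past the fold, with summed levels of 2758 and 2177 CPM in members against 3877 and 5333 in radial glia. Of these markers, Sox2, Pax6, Hes5 and Slc1a3 chose the radial glia class, so part of its higher sum is set by its rule. The class was also cut on the Neurod genes and Eomes, so their lead in members is set by that rule. The other 3 neuron markers, Tubb3, Stmn2 and Dcx, were all higher past the fold, summing to 930 and 2972 CPM in members against 206 and 146 in radial glia. Of the 2 other intermediate progenitor markers, Btg2 was higher past the fold (163 against 76.7 and 213 against 98.2 CPM) and Neurog2 was not. Endothelial markers summed to 12.2 and 32.1 CPM in members against 1.70 and 2.58 in radial glia, mostly from Kdr, a receptor of vascular endothelial growth factor, at 9.33 and 28.4 CPM. The part of endothelial RNA in other values was not tested. Other lists were low in members: microglial markers summed to 2.25 and 2.75, mural to 2.89 and 2.75, and meningeal to 7.40 and 10.998. Members could hold at most 2 UMIs of Col1a1 and Col3a1, so the meningeal sum is partly set by the rule. Radial glia held 6.69 and 3.67 CPM of the meningeal list. The erythroid list stood at 2385 CPM in members of the library labelled E16 against 774 in radial glia, nearly all from haemoglobin, and at 99.0 against 104 in that labelled E18. The part of red cell RNA in these values was not tested.

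Of 10 listed dissociation stress genes, 5 reached 5 CPM. None of these 5 passed the fold, and their median log2 ratio was 0.12. Of the genes used for the stage of radial glia, Crabp2 among the early ones was higher in members (459 against 114 and 399 against 46.5 CPM), and among the late ones Apoe was higher (49.2 against 9.28 and 131 against 22.7 CPM) and Hopx lower (36.0 against 115 and 33.0 against 233 CPM).

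Taken as a whole, hem-like cells held less cell cycle RNA than radial glia. With each cell thinned to 2000 UMIs, 50.5% (43.1 to 57.9) of members of the library labelled E16 and 25.7% (16.2 to 37.2) of those of that labelled E18 had at least 2 UMIs of 12 mitotic genes. In radial glia the shares were 76.4% (74.7 to 78.0) and 67.8% (65.3 to 70.3), and in Cajal-Retzius cells 6.43% and 9.43%. In the choroid plexus class they were 46.7% (31.7 to 62.1) and 30.8% (14.3 to 51.8). Unthinned, members were at 76.3% and 47.3% and radial glia at 94.1% and 87.0%. For 15 S phase genes the shares were 59.1% and 33.8% in members and 86.8% and 81.1% in radial glia. The lists had median log2 ratios of -0.87 and -0.90, yet only Top2a passed the fold, at 362 against 737 and 247 against 752 CPM.

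The mitotic share was also taken by subset. Without the members that met the Cajal-Retzius or neuron rule, 53.2% of 158 and 43.2% of 37 members passed, a comparison chosen after the data had been seen. Among radial glia-rule members the shares were 60.9% (50.1 to 70.9) and 39.1% (19.7 to 61.5), with overlapping intervals. Among Cajal-Retzius-rule members they were 32.0% (14.9 to 53.5) and 8.57% (1.80 to 23.1). Members meeting none of the 3 rules went the other way, with 28 of 66 cells (30.3 to 55.2%) and 7 of 14 (23.0 to 77.0%). Within each of the 3 subsets the intervals of the libraries overlapped. Thinning is a random draw, and the shares expected over all draws were 46.7% and 26.6% for all members, 49.4% and 43.4% without the Cajal-Retzius- or neuron-rule members, and 54.5% and 40.9% for radial glia-rule members. The part of the make-up in the difference between libraries was not tested.

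In the radial glia-rule members all 12 mitotic genes were below radial glia in the library labelled E16, and 6 of the 12 were above in that labelled E18. Ccnb1, a mitotic cyclin, was at 155 CPM against 255 in radial glia in the library labelled E16 and at 368 against 261 in that labelled E18. Cenpf, a kinetochore protein, was at 460 against 665 and 975 against 668 CPM, and Birc5 at 140 against 212 and 265 against 197 CPM. These levels rest on few cells: in the library labelled E18, 1 of the 23 held 29.6% of the UMIs of the list. Without it, a choice made after seeing the data, 2 of the 12 genes were above radial glia, with Ccnb1 at 250.2, Cenpf at 699 and Birc5 at 184 CPM. The share of these members that passed the mitotic minimum, 39.1%, lay below the 67.8% of radial glia. Of the 15 S phase genes, 14 and 15 were below radial glia.

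**Figure D5:**
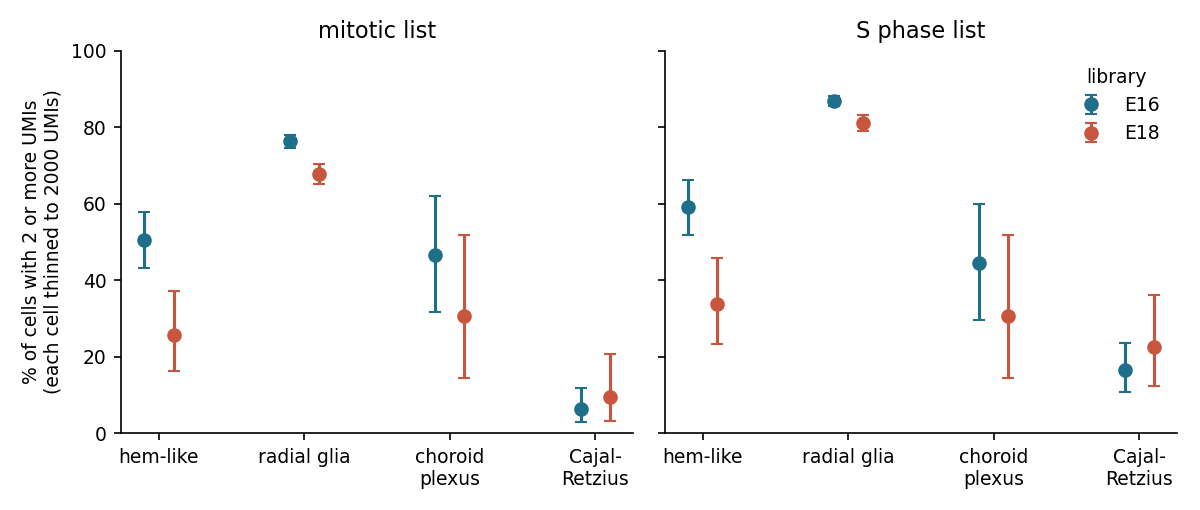
Percentage of cells with at least 2 UMIs of the mitotic list (left) and of the S phase list (right) after each cell was thinned to 2000 UMIs, for 4 classes in the libraries labelled E16 and E18, with exact 95% intervals. Hem-like cells lie below radial glia in both libraries and above Cajal-Retzius cells, and their share is lower in the library labelled E18. In that library their intervals overlap those of Cajal-Retzius cells. Intervals of the choroid plexus class overlap those of hem-like cells in both panels.

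Between the libraries, all 6 neuron markers and 8 of 9 Cajal-Retzius markers had a higher level in members labelled E18 than in those labelled E16, and all 15 S phase genes and 10 of 12 mitotic genes had a lower one. Counted in the same way, by direction alone at 5 CPM or more, 54.4% of 10748 genes were higher and 45.6% lower. Over all genes, a gene counted as higher or lower when its CPM differed at least 2-fold and the Poisson intervals did not overlap. Of 3300 genes, 124 (3.76%) were higher in the library labelled E18 and 33 (1%) lower, and 11 and 10 of these differed at least 2-fold in the same direction in radial glia. The 8 highest ratios were those of Igf1, Chga, Reln, Gap43, Ppp2r2c, Mapt, Grm2 and Pcp4. Reln was at 120.0 CPM in the library labelled E16 and 1372 in that labelled E18, Gap43, a growth cone protein, at 95.5 and 839, and Mapt, the microtubule protein tau, at 18.0 and 202. Radial glia held 6.57 and 6.15 CPM of Reln and 47.1 and 67.5 of Gap43. Igf1, at 2.89 and 134 CPM, came from 5 cells in the library labelled E18, with 54.8% of its UMIs in 1 of them.

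The 8 lowest ratios were those of Xist, Hmga2, Pclaf, LOC100360791, Nes, Ccnd1, H4f3 and Lix1. Hmga2 was at 134 and 25.7 CPM in members and 231 and 23.1 in radial glia, lower in the library labelled E18 in both classes. Nes, the intermediate filament of progenitors, was at 143 and 43.1 CPM in members and 222 and 367 in radial glia. Pclaf, a DNA replication factor, was at 466 and 119 CPM in members and 919 and 745 in radial glia. Xist, the RNA of X inactivation, was at 391 and 71.5 CPM in members and 443 and 210 in radial glia. In the radial glia-rule members it was at 379 and 2.79 CPM, ranking first among the lower genes there. The part of the embryos' sex in these values was not tested. The share of members that met the Cajal-Retzius rule, 13.4% and 47.3%, moved with these genes, and its part in them was not tested.

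Within the radial glia-rule members the libraries differed in other genes, a comparison chosen after the make-up had been seen. Of 3290 genes, 73 (2.22%) were higher in the library labelled E18 and 35 (1.06%) lower. Several of the highest came from single cells: Igf1 was at 3.26 and 237 CPM, Postn at 1.63 and 109 and Dynlrb2 at 29.3 and 209, with 94.1%, 89.7% and 96.0% of their UMIs in the library labelled E18 in 1 cell. Lmcd1 (10.3 and 153 CPM), Apoe (45.1 and 240 CPM) and Msx1 (34.2 and 162 CPM) were spread over 13, 12 and 14 of the 23 cells. The choroid plexus markers Enpp2 (7.06 and 156 CPM) and Ttr (2467 and 10525 CPM) were also among the higher genes. Most Ttr UMIs of the library labelled E18 came from 1 cell, and the spread of Enpp2 over cells is not given here. Among the lower ones were Hmga2, at 134 and 30.6 CPM, and the replication genes Pclaf, at 598 and 187, Tyms, at 112 and 30.6, and Pcna, at 329 and 142. All 12 mitotic genes had a higher level in the library labelled E18 in these members, as had 55.5% of all genes at 5 CPM or more, and 4 of the 12 passed the fold: Ccnb1 was at 155 and 368 CPM, Ccnb2 at 88.0 and 217, Cenpf at 460 and 975 and Hmmr at 82.6 and 189. Mki67, at 247 and 256 CPM, and Cdk1, at 177 and 203 CPM, differed little. Of the 23 cells of the library labelled E18, 1 held 37.1% of the Ccnb1 UMIs and 33.7% of those of Cenpf. Without the cell with the most mitotic UMIs in each library, 10 of the 12 genes were higher and 1, Ccnb2, passed the fold. The share of cells that passed the mitotic minimum was lower in the library labelled E18, 39.1% against 60.9%. Radial glia differed in Hmga2 (231 and 23.1 CPM) and little in Pcna (418 and 410.1 CPM). Wnt3a (133 and 134 CPM), Wnt8b (511 and 493), Axin2 (241 and 298) and Lmx1a (77.7 and 61.3) had overlapping intervals between the libraries in these cells. Wnt3a and Lmx1a are genes of the rule that chose the members, so their levels are a description only. Intervals did not overlap for Wls (296 and 404 CPM), Id3 (673 and 875), Otx2 (235 and 384) and Zic4 (285 and 485). These were higher in the library labelled E18. Nor did they overlap for Nr2f2 (110 and 58.5 CPM), which was lower there.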

How the data were processed

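Single-cell libraries of rat embryonic cortex were made with a 10x Single Cell 3′ kit, per the labels' protocols, and processed by the authors with Cell Ranger 6.0.1 on the build mRatBN7.2, per the submitters' processing notes. The deposited matrices hold raw UMI counts per gene and barcode, with 29772 genes. The extraction text also describes cultured human cells and sorting, which the labelled samples do not match. Barcodes with at least 1000 genes and at most 10% mitochondrial UMIs were kept. Counts were summed over the cells of a class in each library and given as CPM with exact 95% Poisson intervals; shares of cells have exact Clopper-Pearson intervals. Log2 ratios have 10 CPM added to both sides and cover genes that reach 50 CPM (5 CPM for lists) in libraries with at least 20 members, without the 11 genes of the rule. Cells were thinned to 2000 UMIs for shares, with 1 random draw for all members from which subsets were taken. With 1 library per label no test was made. The members, lists and tests were chosen with earlier results of these data known.

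Each kept cell outside the members took the first class it met, in the order choroid plexus (at least 4 UMIs of Folr1, Clic6 and Kcnj13 from 2 genes), meninges (at least 10 of Col1a1 and Col3a1), Cajal-Retzius cells, neurons and radial glia. Named genes were listed genes with at least 20 UMIs in members, and the 15 highest and 15 lowest ratios to radial glia and 8 each way between labels, leaving out mitochondrial, haemoglobin and ribosomal protein genes. Trp73 and Fgf15 were read as Tp73 and Fgf19. Genes named only in the comparisons of radial glia-rule members were chosen after their values were seen. Doublets were left in, and Scrublet removal was tried as an alternative, as were other cell filters, rule minimums, depths, floors and pseudocounts. The fold counts were checked on simulated data. Scripts ran in Python 3.11.15 with scanpy 1.11.5, matplotlib 3.10.9, scipy 1.17.1, numpy 2.4.6 and pandas 2.3.3. Promoters are RefSeq sequences of GRCr8. Some listed genes are not reported here.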

Additional observations from a re-analysis of the deposited data

How the results depend on the processing

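The list medians and the ratios of 17 genes to radial glia that were recomputed kept their direction under the alternatives run. Other single genes did not: with radial glia-rule members only, Wnt4 in the library labelled E18 was at 2.79 CPM, below radial glia at 3.77, and between the libraries labelled E16 and E18 Axin2 went from 241 to 298 CPM (207 to 146 over all members) and Stmn2 from 42.9 to 13.9 (312 to 1323). Shares of hem-like cells in the libraries labelled E14, E16 and E18 were 0, 2.98 and 0.299% with at least 2000 genes and at most 5% mitochondrial UMIs, where the mitotic share in that labelled E18 was 37.5%. They were 0, 2.60 and 0.861% when a UMI of Lmx1a, Wnt3a or Wnt2b was required and 0, 2.60 and 0.751% when cells were thinned to 5000 UMIs first. At a minimum of 6 UMIs they were 0 and 2.87% in the libraries labelled E14 and E16. With fewer than 20 members in the library labelled E18, the stricter cell filter gave no comparison between classes or labels.

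The median log2 ratio of the other Wnt ligands was 1.26 at a minimum of 3 UMIs, 1.51 with Lmx1a, Wnt3a or Wnt2b required, 0.92 after thinning, 1.47 after removal of doublet scores, 2.36 with 1 CPM added and 1.67 with a floor of 20 CPM. That of the BMP response genes was 0.64 with Lmx1a, Wnt3a or Wnt2b required, 1.40 after thinning, 1.66 with 1 CPM added and 1.65 with the 20 CPM floor. That of the transcription factors was 1.33 with 1 CPM added, and that of the Wnt response genes 0.90 with the 20 CPM floor. Thinning gave 119 genes lower than in radial glia. The 20 CPM floor gave 282 higher than in radial glia, and between labels 241 higher and 71 lower. Removal of the highest Scrublet scores took out 20 and 8 members, 10.8% of members in both libraries, against 4.16 and 4.55% of kept cells.

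Subset choices were made after seeing the data. Without members meeting the Cajal-Retzius or neuron rule, shares were 0, 3.04 and 0.650%, the mitotic share was 53.2% in the library labelled E16 and 43.2% in that labelled E18, the medians were 0.58 for transcription factors, 0.87 for Wnt ligands, 1.42 for BMP response and -0.40 for mitotic genes, and 56 genes were higher between labels. With radial glia-rule members only, shares were 0, 1.77 and 0.404%, mitotic shares 60.9 and 39.1%, the same medians 0.62, 1.04, 0.73 and -0.29, and 73 genes were higher. Over all settings Tp73 ranged from 0.44 to 6.75 in log2 ratio to radial glia and Fgf8 from 0.66 to 2.23. The causes were not tested. No paired analysis was possible because each label has 1 library.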
